A study of Mus musculus with 6 samples.

Results

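Histone methyltransferases and demethylases attach or remove methyl groups on histone tails, and arginine methyltransferases of the Prmt genes do so on arginines of histones and many other proteins. Here their transcripts were followed in dendritic cells sorted on CD11c from mouse spleen, which take up and present antigen, after IL-33 or PBS. The genes were taken by symbol: all that start with Kdm, Kmt, Setd, Suv39, Suv420 or Ehmt, and Nsd1, Ezh1, Ezh2, Dot1l, Ash1l and the numbered Prmt genes. That gave 53 of the 24346 genes listed, of which 45 are lysine enzymes and relatives by name and 8 are Prmt genes. The rule therefore holds arginine methyltransferases beside the lysine enzymes, and it leaves out relatives with other symbols, such as Carm1 and Jmjd1c, which are given further on. In all, 51 of the 53 reached 1 FPKM (fragments per kilobase of transcript, scaled to sequencing depth) in at least 3 of the 6 libraries and were tested, as were 11518 genes of the whole series. Of the other two, Kdm4d lay between 0 and 0.114 FPKM and Prmt8 was listed at 0 in every library.

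The study has 3 libraries of cells treated with IL-33, an alarmin of the IL-1 family, and 3 of cells treated with PBS, a buffered saline. All 6 came from mouse spleen cells sorted on CD11c with magnetic beads, followed by stranded mRNA library preparation. The labels give no strain, age, sex, dose or time, and do not say whether treatment was in the animal or in culture. Whether each library stands for its own animal is not stated either, so the p-values rest on a spread between libraries that may be technical. Values of single libraries are given in the order of replicates 1, 2 and 3.

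A methyl mark acts through its position and through the proteins that read it. Methylation of lysine 4 of histone H3 (H3K4) marks promoters and enhancers, that of H3K36 and H3K79 the bodies of transcribed genes, and that of H3K9, H3K27 and H4K20 silent or compacted chromatin. In dendritic cells and macrophages these enzymes are known for setting which inflammatory and lineage genes can respond to a stimulus, and Kdm6b is known as a demethylase gene switched on by NF-κB.

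The libraries were compared first. Read from the steps between low values, the libraries differed in relative depth from 0.943 to 1.22 (PBS replicate 1 set to 1) with overlap of the groups, and absolute depth is unknown. The sum of all FPKM was 614522 to 641412 with PBS and 778391 to 841884 with IL-33. Dendritic cell markers were present throughout: Itgax, which encodes CD11c, lay at 228 to 249 FPKM with PBS and 272 to 300 FPKM with IL-33, and of the 12 markers of conventional dendritic cells 6 were higher and 5 lower. The 7 T cell markers summed to 145 to 319 FPKM with PBS and 55.1 to 71.0 FPKM with IL-33, with all 7 lower, and the 5 markers of plasmacytoid dendritic cells to 233 to 299 and 190.1 to 220 FPKM, with 4 lower. The 5 NK cell markers summed to 249 to 275 and 105 to 132 FPKM, also all lower. The 5 plasma cell markers (125 to 173 and 399 to 427 FPKM) and the 5 neutrophil markers (268 to 410 and 697 to 1391 FPKM) were all higher, and the 5 eosinophil markers summed to 42.3 to 66.4 and 198 to 280 FPKM, with 3 higher. The sums of the 5 B cell markers (255 to 631 and 314 to 433 FPKM) and the 4 erythroid ones (92.3 to 593 and 33.7 to 314 FPKM) overlapped between groups. None of the B cell markers or of the erythroid markers tested passed. The sums of the 6 markers of macrophages and monocytes (1372 to 2331 and 2002 to 2661 FPKM) overlapped too. Of these 6, C1qa and Ccr2 were higher and 3 did not pass. Ly6c2 was lower, at 103 to 224 FPKM with PBS and 49.4 to 63.5 FPKM with IL-33. In such bulk samples fewer cells of a type and less RNA per cell cannot be told apart, and the part of this mix in the values below was not tested.

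Most of the enzyme genes were lower with IL-33. The 53 genes together summed to 931, 888 and 836 FPKM in PBS replicates 1, 2 and 3 and to 712, 755 and 780 FPKM in IL-33 replicates 1, 2 and 3, so every IL-33 library lay below every PBS library. By limma, 31 of the 51 tested genes fell, 2 rose and 18 did not pass (Benjamini-Hochberg adjusted p under 0.05 over all 11518 genes, n = 3 per group). Over all tested genes 25.5% were lower and 28.0% higher, 53.6% in either direction. The median log2 change, on the log2(FPKM + 1) scale and taken as IL-33 minus PBS throughout, was -0.34 for the 51 and 0.01 for all genes. The 3 IL-33 values lay entirely below the 3 PBS values for 33 of the 51 and entirely above for 5, against 30.9% and 32.7% of all tested genes. In the ratio of mean FPKM, 19 of the 31 falls reached 1.5-fold and 4 reached 2-fold, or 18 and 3 on the log2(FPKM + 1) scale.

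The scale of the libraries touched these counts. With libraries rescaled to equal totals of FPKM, 44 of the 51 were lower and none higher, but the median of all genes also moved from 0.01 to -0.29, and 50.7% of all genes were then lower and 11.1% higher. Relative to the median of all genes, the median of the 51 was -0.35 as deposited and -0.34 with equal totals. All 31 falls were called with equal totals too. Another setting removed from each library its trend with transcript length, and is named beside each gene whose call it ended or made.

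**Figure D1:**
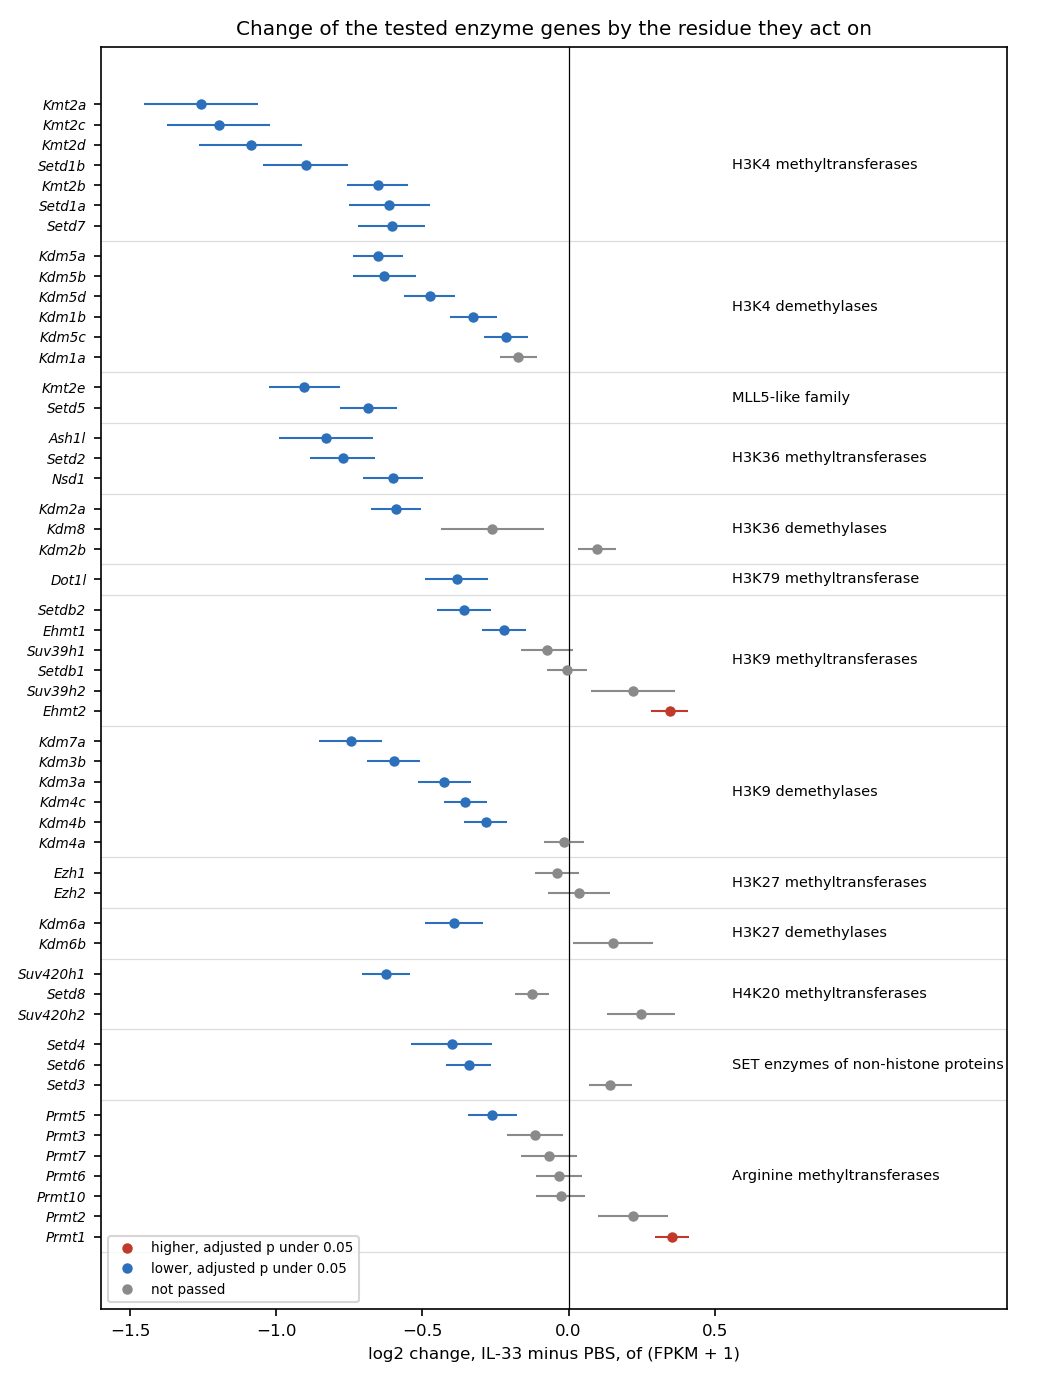
Log2 change (IL-33 minus PBS) with its standard error for the 51 tested genes, grouped by the residue or substrate of the enzyme, with blue for genes that fell, red for genes that rose and grey for genes that did not pass. All 7 H3K4 methyltransferase genes lie between -1.26 and -0.60, while the only 2 rises are those of Ehmt2 and Prmt1, which were 0.01 and 0.02 with equal totals.

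The H3K4 methyltransferases taken by the rule fell as a complete group, 7 of 7 tested. Kmt2a, which encodes the founding MLL protein that keeps Hox and other lineage genes active, stood at 15.9, 11.3 and 9.35 FPKM in the PBS libraries and 3.47, 4.81 and 5.06 FPKM in the IL-33 libraries (log2 change -1.26 with SE 0.19, adjusted p = 0.00202). This was the largest change of any of the 51 genes, to 0.365 times the PBS mean. The enzymes of enhancers followed it closely. Kmt2c, an enzyme that places the single methyl group of enhancers, was at 16.2, 13.8 and 10.8 FPKM in the PBS libraries and 4.12, 5.55 and 6.40 FPKM in the IL-33 libraries (log2 change -1.20 with SE 0.18, adjusted p = 0.00175). Kmt2d, its close relative, was at 17.5, 13.1 and 11.1 FPKM in the PBS libraries and 4.802, 6.11 and 6.9996 FPKM in the IL-33 libraries (log2 change -1.09 with SE 0.18, adjusted p = 0.00244). In all 3 genes the highest IL-33 value was below the lowest PBS value, and IL-33 replicate 1 was the lowest and PBS replicate 1 the highest of the libraries.

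Smaller falls were seen as deposited in the rest of the group. Setd1b, a catalytic subunit of the SET1 complex that trimethylates H3K4 at promoters, went from 13.5, 11.1 and 9.26 FPKM in the PBS libraries to 4.74, 5.61 and 6.32 FPKM in the IL-33 libraries (log2 change -0.90 with SE 0.15, adjusted p = 0.00241). Its relative Setd1a went from 15.05, 12.8 and 11.6 FPKM in the PBS libraries to 6.64, 9.08 and 9.04 FPKM in the IL-33 libraries (log2 change -0.61 with SE 0.14, adjusted p = 0.00857). The groups were separate for both, but 51.9% of the exon bases of Setd1a in GENCODE M21 are shared with the overlapping gene model Gm49388 on the same strand, so its value is uncertain as to the gene. Kmt2b, which marks promoters that are poised in stem cells, stood at 22.9, 19.7 and 19.2 FPKM in the PBS libraries and 11.2, 13.1 and 13.99 FPKM in the IL-33 libraries (log2 change -0.65 with SE 0.11, adjusted p = 0.00237). Setd7, which adds a single methyl group to H3K4 and to several transcription factors, stood at 13.5, 12.2 and 10.9 FPKM in the PBS libraries and 6.63, 7.79 and 8.67 FPKM in the IL-33 libraries (log2 change -0.60 with SE 0.11, adjusted p = 0.00436). The median change of the 7 genes was -0.90 as deposited and -0.39 with the trend of each library with transcript length removed. In that setting Setd1b (-0.49) fell more than Kmt2d (-0.39). Every one of the 7 genes was called lower under each of the 17 alternative settings tried. Summed, these 7 genes gave 115, 94.1 and 82.1 FPKM in PBS replicates 1, 2 and 3 and 41.6, 52.1 and 56.5 FPKM after IL-33.

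The upstream sequences of the 3 genes that fell most and of the only 2 that rose are shown to compare what stands before their start sites. Each is RefSeq sequence of build GRCm38.p6 (the mm10 assembly), 5′ to 3′ on the strand of the gene, from the 250 bases before the annotated start site and without any base that GENCODE M21 places in an exon. The genes themselves span, in GENCODE M21 on mm10, chr9:44803355-44881296 (Kmt2a), chr5:25271798-25498783 (Kmt2c), chr15:98831669-98871204 (Kmt2d), chr17:34898469-34914052 (Ehmt2) and chr7:44975989-44986568 (Prmt1). Capitals mark GC boxes (GGGCGG, the Sp1 site) and CCAAT boxes on either strand. The stretch of Kmt2a is at chr9:44881297-44881539, that of Kmt2c at chr5:25498784-25499033, that of Kmt2d at chr15:98871206-98871455 and that of Prmt1 at chr7:44986569-44986670, all on the minus strand, and that of Ehmt2 is at chr17:34898266-34898468 on the plus strand.
Kmt2a: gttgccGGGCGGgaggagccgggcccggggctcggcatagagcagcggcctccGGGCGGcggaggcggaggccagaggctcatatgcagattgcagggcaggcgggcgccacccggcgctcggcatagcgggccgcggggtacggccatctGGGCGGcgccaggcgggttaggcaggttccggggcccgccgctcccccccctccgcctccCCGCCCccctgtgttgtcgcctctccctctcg
Kmt2c: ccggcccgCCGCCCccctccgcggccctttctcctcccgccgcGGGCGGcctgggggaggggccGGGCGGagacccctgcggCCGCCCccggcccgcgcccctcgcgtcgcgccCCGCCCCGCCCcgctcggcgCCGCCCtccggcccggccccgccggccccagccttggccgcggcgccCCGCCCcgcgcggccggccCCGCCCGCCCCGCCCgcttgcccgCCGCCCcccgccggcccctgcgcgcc
Kmt2d: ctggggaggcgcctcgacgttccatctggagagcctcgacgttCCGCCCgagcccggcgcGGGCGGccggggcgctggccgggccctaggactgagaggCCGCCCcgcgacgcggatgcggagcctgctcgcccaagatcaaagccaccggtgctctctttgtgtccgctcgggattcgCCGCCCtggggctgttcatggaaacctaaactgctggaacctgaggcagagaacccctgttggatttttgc
Ehmt2: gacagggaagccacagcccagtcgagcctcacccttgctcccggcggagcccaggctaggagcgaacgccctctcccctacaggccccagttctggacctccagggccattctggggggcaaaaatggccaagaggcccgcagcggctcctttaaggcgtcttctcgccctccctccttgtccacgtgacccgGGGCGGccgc
Prmt1: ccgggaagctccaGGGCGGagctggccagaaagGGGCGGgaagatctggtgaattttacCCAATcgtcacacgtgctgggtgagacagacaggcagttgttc

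The Kmt2a stretch held 4 GC boxes and 29 CpG dinucleotides, that of Kmt2c 12 and 48, and that of Kmt2d 4 and 26, with overlapping matches counted separately. The shorter stretches of Ehmt2 (203 bases) and Prmt1 (102 bases) held 1 and 2 GC boxes and 13 and 5 CpG dinucleotides. Prmt1 also had 1 CCAAT box there. Over the full 250 bases Ehmt2 had 2 GC boxes and 18 CpG dinucleotides. Over that length Prmt1 had 4 GC boxes, as did Kmt2a and Kmt2d, with 3 CCAAT boxes and 13 CpG dinucleotides. Promoters were matched for 43 of the 53 genes. Over the full 250 bases a GC box stood before 25 of the 43 (32.9% of 27025 genes with a promoter in the RefSeq table, noncoding genes included) and a CCAAT box before 18 (34.5%). The ETS core CCGGAAG stood before 7 (7.05%), the cyclic AMP element TGACGTCA before 2 (1.62%), an E2F site (TTTCCCGC or TTTGGCGC) before 1 (1.35%) and the κB core GGGNNTTCC before 2 (4.88%), each searched on both strands. None of these last 4 motifs was in the 5 stretches shown. The median CpG count was 17 in the 43 and 6 in all.

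**Figure D2:**
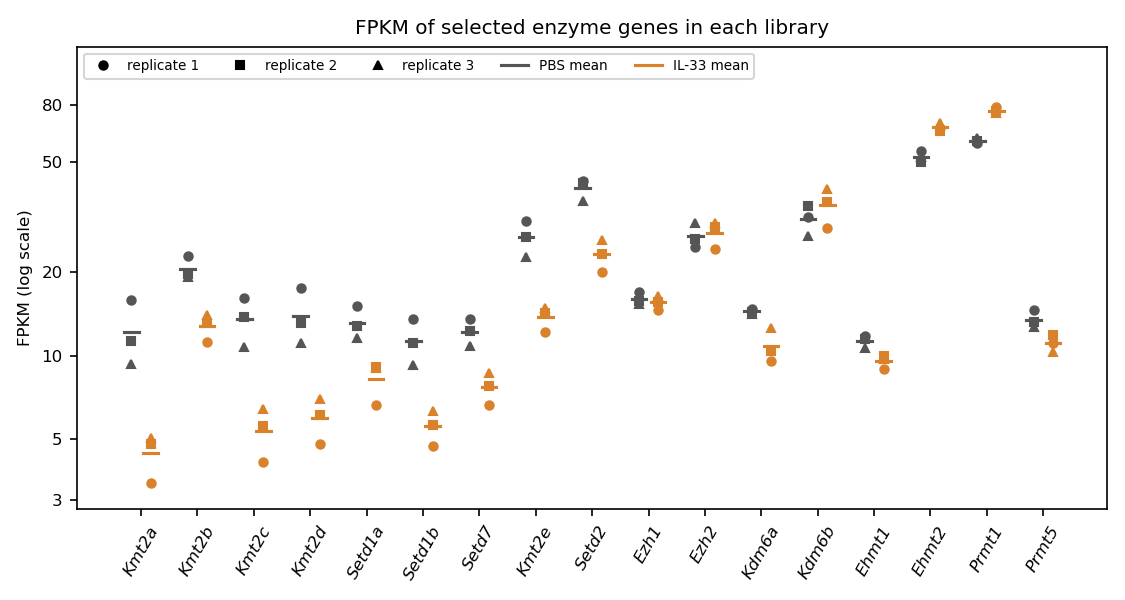
FPKM of 17 enzyme genes in each library on a log axis, with PBS in grey, IL-33 in orange, symbols for replicates and bars for the mean of 3 libraries. The 3 IL-33 values lie below the 3 PBS values for the H3K4 methyltransferases, Kmt2e and Setd2, overlap with them for Ezh1, Ezh2 and Kdm6b, and lie above them for Ehmt2 and Prmt1.

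Demethylases of H3K4 fell in 5 of 6 cases, with a median log2 change of -0.40 where the methyltransferases had -0.90. With the length trend removed these medians were -0.16 and -0.39. The difference between the medians was not tested. The JmjC enzyme Kdm5a, first known as a partner of the retinoblastoma protein, went from 11.8, 11.5 and 10.4 FPKM in the PBS libraries to 6.27, 6.70 and 7.35 FPKM in the IL-33 libraries (log2 change -0.65 with SE 0.09, adjusted p = 0.00119, and -0.16 with the length trend removed, where it did not pass). Kdm5b, a relative often raised in breast tumours, went from 5.78, 5.67 and 4.61 FPKM in the PBS libraries to 3.21, 3.31 and 2.77 FPKM in the IL-33 libraries (log2 change -0.63 with SE 0.11, adjusted p = 0.00291, and -0.23 with the length trend removed, where it did not pass). The groups were separate for both. The X-linked Kdm5c, at 11.1, 11.3 and 10.5 FPKM in the PBS libraries and 8.79, 9.21 and 9.95 FPKM in the IL-33 libraries, passed only narrowly (log2 change -0.21 with SE 0.08, adjusted p = 0.046), and its call was lost without any 1 library other than IL-33 replicate 3 (-0.24 to -0.18), with quantile normalization (-0.14), with cyclic loess (-0.12) and with the length trend removed (0.06). Its Y-linked counterpart Kdm5d was at 9.46, 9.98 and 8.24 FPKM in the PBS libraries and 6.06, 6.48 and 6.49 FPKM in the IL-33 libraries (log2 change -0.48 with SE 0.09, adjusted p = 0.00391, and -0.11 with the length trend removed, where it did not pass). Kdm5d was thus above 6 FPKM in all 6 libraries, although reads of the X and Y copies could have been divided between them. Kdm1a (LSD1), the flavin-dependent demethylase of the CoREST repressor complex, was at 23.01, 22.8 and 23.4 FPKM in the PBS libraries and 19.5, 20.99 and 20.7 FPKM in the IL-33 libraries and missed the threshold by little (log2 change -0.17 with SE 0.06, adjusted p = 0.0507), and it passed with equal totals (-0.50), quantile normalization (-0.22), cyclic loess (-0.21), the length trend removed (-0.23), a pseudocount of 0.1 (-0.18) and either other filter on low values (-0.17). Kdm1b, which clears H3K4 methylation for imprinting in the egg, was at 7.81, 8.08 and 8.61 FPKM in the PBS libraries and 5.94, 6.18 and 6.81 FPKM in the IL-33 libraries (log2 change -0.33 with SE 0.08, adjusted p = 0.0123), a call lost after removal of the length trend (-0.16) and with cyclic loess (-0.20). The ratio of the summed level of H3K4 methyltransferases to that of H3K4 demethylases within a library was 1.66, 1.36 and 1.25 in PBS replicates 1, 2 and 3 and 0.835, 0.985 and 1.04 in IL-33 replicates 1, 2 and 3, without overlap. The methyltransferase transcripts measured 6.49 to 19.8 kb, and that of Kdm1a, the demethylase gene with the highest FPKM, 3.03 kb. The ratio was not taken with the length trend removed, and the part of length in it was not tested.

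Both genes of the MLL5-like family fell. Kmt2e (MLL5), whose SET domain has little or no methyltransferase activity and which regulates the cell cycle and blood formation, stood at 30.7, 26.8 and 22.8 FPKM in the PBS libraries and 12.2, 14.3 and 14.9 FPKM in the IL-33 libraries (log2 change -0.90 with SE 0.12, adjusted p = 0.00129). Setd5, its nearest relative, stood at 18.95, 19.1 and 17.4 FPKM in the PBS libraries and 9.68, 11.4 and 12.4 FPKM in the IL-33 libraries (log2 change -0.69 with SE 0.10, adjusted p = 0.00155). The values of each were separate by group, and both calls held in each setting tried. About 9.31% of the exon bases of Kmt2e also belong to Srpk2 on the other strand, and the use of strand in counting is not given in the sources used here.

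The 3 H3K36 methyltransferases taken by the rule fell as well. Setd2, the enzyme that trimethylates H3K36 behind elongating RNA polymerase, stood at 42.5, 42.0 and 36.1 FPKM in the PBS libraries and 20.1, 23.3 and 26.2 FPKM in the IL-33 libraries (log2 change -0.77 with SE 0.11, adjusted p = 0.00159). Ash1l, which counteracts Polycomb silencing, stood at 10.7, 9.30 and 7.45 FPKM in the PBS libraries and 3.64, 5.02 and 5.45 FPKM in the IL-33 libraries (log2 change -0.83 with SE 0.16, adjusted p = 0.00469). Nsd1, which dimethylates H3K36, stood at 19.4, 18.2 and 16.0 FPKM in the PBS libraries and 10.1, 11.8 and 12.4 FPKM in the IL-33 libraries (log2 change -0.60 with SE 0.10, adjusted p = 0.00293). No PBS library overlapped an IL-33 library for any of them, but after removal of the length trend the change of Nsd1 was -0.05 (adjusted p = 0.512). Of the Nsd1 relatives outside the rule, Whsc1l1 fell by 0.29 (SE 0.07). Whsc1 had overlapping groups and did not pass (log2 change -0.08 with SE 0.08, adjusted p = 0.379), but was called lower with equal totals (-0.39).

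The H3K36 demethylases parted. Kdm2a, a CpG-island protein with a JmjC domain, fell from 34.0, 29.6 and 29.8 FPKM in the PBS libraries to 18.7, 21.3 and 20.97 FPKM in the IL-33 libraries (log2 change -0.59 with SE 0.08, adjusted p = 0.00158). Kdm2b, its relative that brings a Polycomb complex to CpG islands, was at 25.1, 23.1 and 23.9 FPKM in the PBS libraries and 25.9, 25.0 and 26.5 FPKM in the IL-33 libraries and did not pass (log2 change 0.10 with SE 0.06, adjusted p = 0.242, and -0.23 with equal totals, where it was called lower). After removal of the length trend Kdm2b was higher (0.28, adjusted p = 0.0105). Kdm8 was between 1.09 and 2.43 FPKM with overlapping groups (log2 change -0.26 with SE 0.18, adjusted p = 0.242, and -0.48 with equal totals, where it was called lower). Dot1l, the sole H3K79 methyltransferase, was at 11.1, 9.23 and 9.19 FPKM in the PBS libraries and 6.39, 7.82 and 7.71 FPKM in the IL-33 libraries (log2 change -0.38 with SE 0.11, adjusted p = 0.0197), and its call was lost without IL-33 replicate 1 (-0.30) or PBS replicate 1 (-0.30), with cyclic loess (-0.27) and after removal of the length trend (-0.08).

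The H3K9 methyltransferases did not move together: 1 rose, 2 fell and 3 did not pass. Ehmt2 (G9a), the principal enzyme of H3K9 dimethylation in active chromatin, rose from 54.6, 50.1 and 52.2 FPKM in the PBS libraries to 66.3, 64.9 and 68.9 FPKM in the IL-33 libraries (log2 change 0.35 with SE 0.06, adjusted p = 0.00371). Ehmt1 (GLP), the partner with which it forms a heterodimer, was at 11.7, 11.5 and 10.6 FPKM in the PBS libraries and 8.92, 9.95 and 9.73 FPKM in the IL-33 libraries and passed narrowly (log2 change -0.22 with SE 0.08, adjusted p = 0.0417). That fall was lost without any 1 library other than PBS replicate 3 (-0.25 to -0.18) and with quantile normalization (-0.16) and cyclic loess (-0.13), and the change was 0.02 after removal of the length trend. The rise of Ehmt2 kept its sign but not its call with equal totals (0.01), quantile normalization (0.13) and cyclic loess (0.13). Setdb2, which is known to be induced by interferon and virus in macrophages, fell from 16.5, 15.6 and 17.6 FPKM in the PBS libraries to 11.4, 12.8 and 14.1 FPKM in the IL-33 libraries (log2 change -0.36 with SE 0.09, adjusted p = 0.0139). Setdb1, the enzyme that silences endogenous retroviruses, was at 17.2, 16.4 and 15.6 FPKM in the PBS libraries and 15.8, 16.9 and 16.3 FPKM in the IL-33 libraries with overlapping groups (log2 change -0.01 with SE 0.07, adjusted p = 0.947). It was called lower with equal totals (-0.33) and higher with the length trend removed (0.21, adjusted p = 0.0226). The heterochromatin enzymes Suv39h1 (9.14 to 11.3 FPKM over the 6 libraries) and Suv39h2 (0.661 to 1.45 FPKM) also overlapped, with log2 changes of -0.07 (SE 0.09) and 0.22 (SE 0.14). Suv39h1 was called lower with equal totals (-0.38).

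H3K9 demethylases fell in 5 of 6 tested cases. Kdm7a, which removes methyl groups from H3K9 and H3K27, changed most, from 27.6, 29.5 and 22.8 FPKM in the PBS libraries to 14.2, 15.4 and 16.7 FPKM in the IL-33 libraries (log2 change -0.75 with SE 0.11, adjusted p = 0.00171). Kdm3b fell from 35.0, 33.2 and 30.5 FPKM in the PBS libraries to 19.05, 23.01 and 22.2 FPKM in the IL-33 libraries (log2 change -0.60 with SE 0.09, adjusted p = 0.00196), and 24.6% of its exon bases are shared with a noncoding gene on the other strand. Kdm3a, a demethylase gene known to be induced by hypoxia, fell from 19.7, 18.8 and 19.6 FPKM in the PBS libraries to 12.5, 14.3 and 15.8 FPKM in the IL-33 libraries (log2 change -0.43 with SE 0.09, adjusted p = 0.00696). Groups were separate in all 3. The Kdm4 genes, which act on H3K9 and H3K36, changed less. Kdm4c fell from 11.4, 12.1 and 10.8 FPKM in the PBS libraries to 8.72, 8.37 and 9.06 FPKM in the IL-33 libraries (log2 change -0.35 with SE 0.07, adjusted p = 0.00641). Kdm4b fell from 8.42, 7.75 and 7.70 FPKM in the PBS libraries to 6.19, 6.58 and 6.29 FPKM in the IL-33 libraries (log2 change -0.28 with SE 0.07, adjusted p = 0.0147), a call lost after removal of the length trend (-0.16) and with cyclic loess (-0.16). Kdm4a was at 24.7, 23.5 and 22.9 FPKM in the PBS libraries and 22.1, 24.2 and 24.0 FPKM in the IL-33 libraries, with overlapping groups (log2 change -0.02 with SE 0.07, adjusted p = 0.853, and -0.34 with equal totals, where it was called lower).

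Both catalytic subunits of Polycomb repressive complex 2 (PRC2), which methylates H3K27, had changes that did not pass. Ezh2, the subunit of dividing cells, was at 24.7, 26.3 and 30.00 FPKM in the PBS libraries and 24.2, 29.0 and 30.1 FPKM in the IL-33 libraries (log2 change 0.04 with SE 0.11, adjusted p = 0.793). Ezh1, the subunit of resting cells, was at 17.0, 15.7 and 15.4 FPKM in the PBS libraries and 14.6, 15.6 and 16.4 FPKM in the IL-33 libraries (log2 change -0.04 with SE 0.07, adjusted p = 0.678). Both overlapped between groups, and Ezh1 passed only with equal totals (-0.36, which is near the median of all genes there). Their ratio, Ezh2 over Ezh1, lay between 1.45 and 1.95 with PBS and between 1.65 and 1.86 with IL-33.

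The H3K27 demethylases were split between an X-linked gene that fell and an inducible gene that did not pass. Kdm6a (UTX), a subunit of the Kmt2c and Kmt2d complexes, went from 14.8, 14.4 and 14.2 FPKM in the PBS libraries to 9.58, 10.4 and 12.6 FPKM in the IL-33 libraries (log2 change -0.39 with SE 0.10, adjusted p = 0.0138), and its call was lost after removal of the length trend (-0.15). Kdm6b (JMJD3) was at 31.7, 34.7 and 26.9 FPKM in the PBS libraries and 28.8, 35.9 and 39.8 FPKM in the IL-33 libraries (log2 change 0.15 with SE 0.14, adjusted p = 0.371). IL-33 replicate 1 lay within the PBS range of Kdm6b and the other two IL-33 libraries above it, so the groups overlapped. It was -0.18 with equal totals (adjusted p = 0.35), whereas with the length trend removed Kdm6b was higher (0.44, adjusted p = 0.0153). The ratio of the summed level of Ezh1 and Ezh2 to that of Kdm6a and Kdm6b was 0.898, 0.856 and 1.10 in the PBS libraries and 1.01, 0.965 and 0.888 in the IL-33 libraries, with overlap.

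Among H4K20 methyltransferases the trimethylation enzymes Suv420h1 and Suv420h2 differed in whether they passed. Suv420h1 (Kmt5b) fell from 19.03, 17.8 and 15.8 FPKM in the PBS libraries to 10.8, 10.9 and 11.3 FPKM in the IL-33 libraries (log2 change -0.63 with SE 0.08, adjusted p = 0.00122). Suv420h2 (Kmt5c) was at 25.5, 27.5 and 19.96 FPKM in the PBS libraries and 27.7, 30.1 and 28.7 FPKM in the IL-33 libraries, each IL-33 value above each PBS value, yet did not pass (log2 change 0.25 with SE 0.12, adjusted p = 0.11, and -0.08 with equal totals). Setd8 (Kmt5a), which adds the first methyl group during cell division, was at 27.7, 27.7 and 28.1 FPKM in the PBS libraries and 25.6, 24.9 and 25.8 FPKM in the IL-33 libraries and did not pass (log2 change -0.13 with SE 0.06, adjusted p = 0.103), although its groups were separate and it was called lower with equal totals (-0.45), quantile normalization (-0.21), cyclic loess (-0.21) and after removal of the length trend (-0.22).

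SET-domain genes grouped here as enzymes of non-histone proteins were mixed. Setd6, which methylates the NF-κB subunit RelA, fell from 7.18, 6.42 and 6.64 FPKM in the PBS libraries to 5.26, 4.99 and 5.08 FPKM in the IL-33 libraries (log2 change -0.34 with SE 0.08, adjusted p = 0.00835). It has the shortest transcript of the tested genes, at 1.71 kb, and its change was -0.59 after removal of the length trend and -0.20 with cyclic loess, where its call was lost. Setd4 was low, at 2.53, 2.36 and 1.77 FPKM in the PBS libraries and 1.53, 1.13 and 1.65 FPKM in the IL-33 libraries (log2 change -0.40 with SE 0.14, adjusted p = 0.0413), and its call was lost when any 1 of IL-33 replicate 1, IL-33 replicate 2, PBS replicate 1 and PBS replicate 2 was left out (-0.43 to -0.31), with quantile normalization (-0.34) and with cyclic loess (-0.27). Setd3, which methylates a histidine of actin, was at 34.5, 35.9 and 33.7 FPKM in the PBS libraries and 41.8, 37.2 and 36.4 FPKM in the IL-33 libraries and did not pass (log2 change 0.14 with SE 0.07, adjusted p = 0.141, and -0.19 with equal totals, where it was called lower).

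Few arginine methyltransferases passed as deposited: of 7 tested, 1 rose, 1 fell and 5 did not pass, with a median of -0.03. The median was -0.32 with equal totals, which is near the median of all genes there. Prmt1, which makes most asymmetric dimethylarginine in the cell, was the highest of all 53 genes in FPKM and rose from 58.5, 59.3 and 61.3 FPKM in the PBS libraries to 78.7, 76.2 and 75.0 FPKM in the IL-33 libraries (log2 change 0.36 with SE 0.06, adjusted p = 0.00249). Without overlap between groups, its ratio of means was 1.28, but the change was 0.02 with equal totals, 0.12 with quantile normalization and 0.11 with cyclic loess, none of which passed. Prmt5, the main symmetric dimethylating enzyme, which acts on histones and splicing proteins, fell from 14.6, 13.2 and 12.7 FPKM in the PBS libraries to 11.1, 11.9 and 10.3 FPKM in the IL-33 libraries (log2 change -0.26 with SE 0.08, adjusted p = 0.034). That call was lost when any 1 of IL-33 replicate 1, IL-33 replicate 3, PBS replicate 1 and PBS replicate 2 was left out (-0.28 to -0.21), with quantile normalization (-0.23) and with cyclic loess (-0.196). Prmt2 was at 3.81, 4.08 and 3.78 FPKM in the PBS libraries and 5.80, 4.28 and 4.16 FPKM in the IL-33 libraries, separate by group but not past the threshold (log2 change 0.22 with SE 0.12, adjusted p = 0.159, and -0.06 with equal totals). Prmt3, Prmt6, Prmt7 and Prmt10 (Prmt9 in current naming) lay between 5.25 and 13.1 FPKM with overlapping groups and log2 changes from -0.12 to -0.03. All of them were called lower with equal totals (-0.43 to -0.32).

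Transcript length ran alongside these differences. By the longest transcript in GENCODE M21 the median of all tested members, whether they fell or not, was 5.18 kb against 3.25 kb for all tested genes. Across the 51 members, which share the 6 libraries, the log2 change correlated with log2 transcript length at a Pearson r of -0.77 (Spearman rho -0.74). Over the 11445 tested genes with a length these were -0.31 and -0.45. All 12 members of 8 kb or longer fell, with medians of -0.70 from 8 to 10 kb and -0.96 from 10 kb upwards. The other tested genes of the same length classes had medians of -0.41 and -0.51. In those classes 66.9% and 69.2% of all genes were lower, compared with 8.28% under 2 kb. In the class from 5 to 6 kb the 4 members had a median of -0.11, where all genes had -0.22.

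The length trend differed between libraries of a group. The median deviation of genes of 8 kb or longer minus that of genes of 2 to 3 kb was -0.43, -0.26 and -0.20 in IL-33 replicates 1, 2 and 3 and 0.40, 0.31 and 0.18 in PBS replicates 1, 2 and 3. The order of libraries was the same in many members: of the 31 that fell, IL-33 replicate 1 was lowest of its group in 26, PBS replicate 1 highest in 24 and PBS replicate 3 lowest in 26. RNA integrity is not among the labels, and its part in the trend was not tested.

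When the trend of each library with transcript length was removed, 23 of 51 members were lower and 5 higher, beside 21.3% and 23.1% of the 11445 genes with a length, and the median of the members was -0.19. Of the 31 that fell as deposited, 21 were still called lower. Over all genes 1864 of 2939 were. Kmt2a (-0.62, adjusted p = 0.00737), Kmt2c (-0.59) and Kmt2e (-0.57) were still lower but by less than as deposited, and Kmt2d was at -0.39. Calls ended for Nsd1, Kdm5a, Kdm5b, Kdm5c, Kdm5d, Kdm6a, Kdm1b, Kdm4b, Dot1l and Ehmt1. The 5 higher members were Ehmt2 (0.41), Kdm6b (0.44), Kdm2b (0.28), Setdb1 (0.21) and Prmt1 (0.18).

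**Figure D3:**
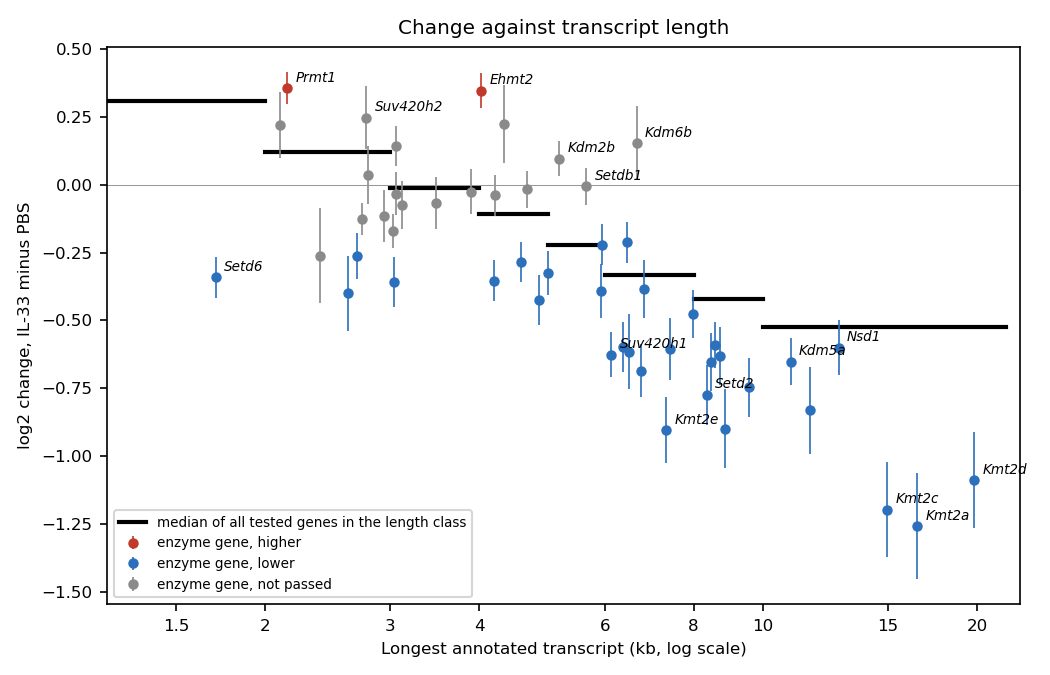
Log2 change with its standard error against the longest annotated transcript (log axis) for the 51 tested enzyme genes, with black bars for the median of all tested genes in each length class. The bars step from 0.31 under 2 kb to -0.52 at 10 kb and longer, and Kmt2a, Kmt2c and Kmt2d lie below the last bar while Nsd1 lies close to it.

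**Figure D4:**
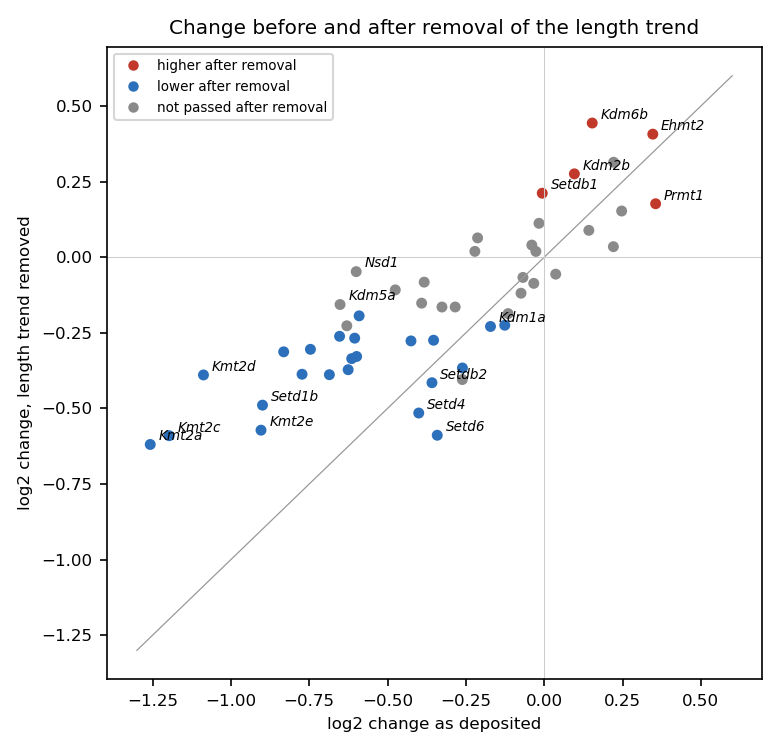
Log2 change of the 51 tested genes as deposited (horizontal) and after the length trend of each library was removed (vertical), with the line of equality. Kmt2a moved from -1.26 to -0.62 and Nsd1 from -0.60 to -0.05, while Kdm6b moved from 0.15 to 0.44.

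Closely related enzymes were also compared within a library, where the scaling between libraries cancels. Of 20 pairs written down, 19 could be compared, since Prmt8 was listed at 0, and 13 had ratios that did not overlap between groups. Of all single tested genes, 30.9% had IL-33 values entirely below the PBS values and 32.7% entirely above. No such share was computed for ratios of other gene pairs, so the 13 only describe these pairs. With 3 against 3 libraries the exact two-sided permutation p cannot go below 0.1, and the smallest value adjusted over the 19 pairs was 0.146, so no pair can pass a threshold of 0.05. The ratio Suv420h2 over Suv420h1 was 1.34, 1.55 and 1.27 with PBS and 2.56, 2.77 and 2.54 with IL-33 in replicates 1, 2 and 3. Kdm2b over Kdm2a was 0.739, 0.778 and 0.803 with PBS and 1.38, 1.17 and 1.26 with IL-33, so the gene with the higher FPKM was Kdm2a in each PBS library and Kdm2b in each IL-33 library. Ehmt2 over Ehmt1 was 4.66, 4.36 and 4.91 with PBS and 7.44, 6.53 and 7.08 with IL-33. These 3 ratios shifted by 0.87, 0.69 and 0.57 on the log2 scale with 1 FPKM added to each gene, and all 3 favoured the gene with the shorter transcript.

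In 9 of the 13 separated pairs the ratio moved toward the gene with the shorter transcript, and in 4 toward the one with the longer. The H3K27 pair was one of the 4: Kdm6b over Kdm6a was 2.15, 2.41 and 1.90 with PBS and 3.00, 3.46 and 3.17 with IL-33, although Kdm6b (6.65 kb) is the longer. Setdb1 over Setdb2 was 1.04, 1.05 and 0.886 with PBS and 1.38, 1.33 and 1.16 with IL-33, with transcripts of 5.65 and 3.03 kb. Kdm4a over Kdm4c (2.18, 1.94 and 2.13 with PBS, 2.54, 2.90 and 2.65 with IL-33) and Kmt2d over Kmt2c (1.08, 0.953 and 1.03 with PBS, 1.17, 1.10 and 1.09 with IL-33) were the others. Downward shifts were seen for Kmt2a over Kmt2b (0.691, 0.573 and 0.488 with PBS, 0.311, 0.367 and 0.362 with IL-33) and Prmt5 over Prmt1 (0.2495, 0.222 and 0.207 with PBS, 0.141, 0.156 and 0.137 with IL-33).

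**Figure D5:**
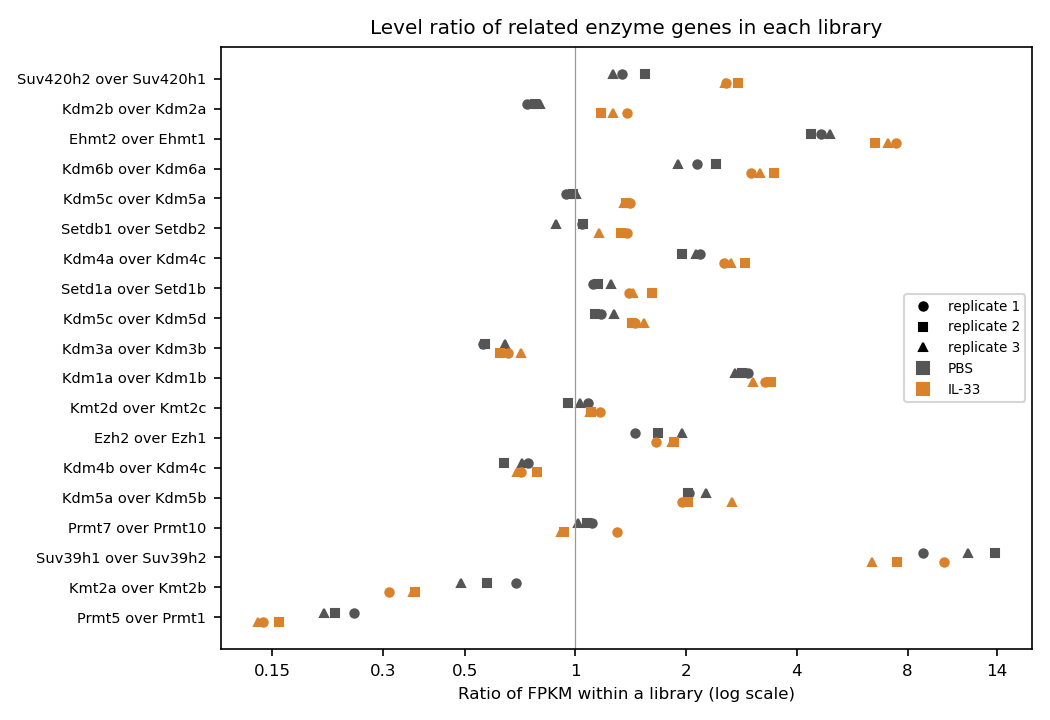
Ratio of FPKM of related enzyme genes within each library (log axis), PBS in grey and IL-33 in orange, with symbols for replicates and pairs ordered by the shift between groups. The IL-33 ratios of Suv420h2 over Suv420h1 (2.54 to 2.77) lie to the right of the PBS ratios (1.27 to 1.55), while those of Ezh2 over Ezh1 overlap.

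Partner proteins of the enzymes were taken from lists written from textbook knowledge. Of 12 COMPASS subunits, some shared by the Kmt2 and Setd1 enzymes and some specific to 1 or a few of them, 5 fell and 1 rose, with a median of -0.14. Hcfc1 fell from 21.1 ± 1.42 to 13.6 ± 1.14 FPKM (mean ± SD, n = 3 per group; log2 change -0.60, SE 0.09) and Rbbp5, part of the core that activates the enzymes, from 14.8 ± 1.02 to 10.7 ± 0.640 FPKM (-0.43, SE 0.08). Pagr1a, a subunit of the Kmt2c and Kmt2d complexes, rose by 0.36 (SE 0.09), and by 0.03 with equal totals, where it did not pass. With equal totals 10 of the 12 were lower. None of the COMPASS genes changed as much as Kmt2a, Kmt2c or Kmt2d.

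Of 9 other PRC2 genes 5 fell and none rose (median -0.33), although Ezh1 and Ezh2 did not pass. Aebp2, an accessory subunit, fell from 36.2 ± 0.822 to 23.7 ± 1.88 FPKM (log2 change -0.59, SE 0.07). Phf1 and Mtf2, which help PRC2 bind chromatin, fell by 0.55 (SE 0.10) and 0.50 (SE 0.10), and the core subunit Suz12 fell by 0.33 (SE 0.08). Of 6 DOT1L partners 3 fell and none rose, with Mllt10 at -0.50 (SE 0.07). Of 12 HP1 proteins and other heterochromatin readers 8 fell and 1 rose (Uhrf1, which guides maintenance DNA methylation, 0.45 as deposited and 0.13 with equal totals, where it did not pass). With the length trend removed 4 of these readers and 1 of the DOT1L partners were lower.

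In the CoREST complex, where Kdm1a works, 7 of 12 tested genes fell and 2 rose. Phf21a, which reads unmethylated H3K4, fell by 0.71 (SE 0.08). Gfi1b, a zinc finger repressor of blood cells that recruits Kdm1a, was at 0.315, 0.0413 and 0.139 FPKM in the PBS libraries and 3.37, 3.26 and 2.38 FPKM in the IL-33 libraries. It is 1 of the 2 rises, but it passed the filter on low values only through the IL-33 libraries and had to differ, so its values are a description with no test. The other rise was that of Hmg20b, by 0.39 (SE 0.08), and by 0.06 with equal totals, where it did not pass. Of 7 PRMT partners 1 rose and 1 fell, or 1 and 5 with equal totals. The one that fell was Wdr77, the obligate partner of Prmt5, at -0.26 (SE 0.07), and the one that rose was Coprs, which directs Prmt5 to histones, at 0.72 (SE 0.15).

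Relatives that the rule did not take showed falls in 12 of 23 tested cases and rises in 2. Hr (hairless), a nuclear receptor corepressor with a JmjC domain, was at 1.05, 0.652 and 0.701 FPKM in the PBS libraries and at 33.4, 25.5 and 24.0 FPKM in the IL-33 libraries. It is 1 of the 2 rises, and it too passed the filter through the IL-33 libraries, so no test is given for it. The other rise was that of Smyd2, by 0.40 (SE 0.10), and by 0.09 with equal totals, where it did not pass. Jmjd1c, a relative of Kdm3a and Kdm3b, fell by 0.83 (SE 0.15), and Uty, the Y-linked relative of Kdm6a, by 0.31 (SE 0.08). Carm1, the arginine methyltransferase once called Prmt4, fell by 0.46 (SE 0.10). With the length trend removed 7 of the 23 were lower and 3 higher.

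Falls outnumbered rises among other chromatin enzymes too. Of 30 acetyltransferases and deacetylases 14 fell and 2 rose (median -0.17), with Kat6a, a partner in MLL-dependent transcription, at -0.94 (SE 0.13) and Sirt2 at 0.53 (SE 0.07, and 0.19 with equal totals, where it did not pass). Among 11 genes of DNA methylation 6 fell and 1 rose (median -0.34), with Tet2 at -0.78 (SE 0.16). With equal totals 24 of the first list and 8 of the second were lower, and with the length trend removed 12 and 3.

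Among genes of metabolism linked to substrates or products of these enzymes, rises outnumbered falls as deposited. Of 20 genes of ketoglutarate and succinate metabolism, which supplies and inhibits the JmjC demethylases, 13 rose and 2 fell (median 0.33), or 8 and 6 with equal totals (median -0.01). Idh1, which makes 2-oxoglutarate in the cytosol, averaged 29.2 ± 3.40 FPKM in PBS libraries and 65.9 ± 7.69 FPKM in IL-33 libraries and rose by 1.15 on the log2 scale (SE 0.11, and 0.82 with equal totals) and Got1 by 1.45 (SE 0.07, and 1.12 with equal totals). Of 17 tested genes of methyl donor metabolism 9 rose and 3 fell (median 0.25), or 2 and 7 with equal totals (median -0.03). Slc7a5, which imports methionine and other large amino acids, rose by 0.68 (SE 0.07, and 0.37 with equal totals), while the methionine synthase gene Mtr fell by 0.26 (SE 0.07). Of 20 proliferation genes 12 rose and 1 fell (median 0.39), or 4 and 3 with equal totals (median 0.06).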

How the data were processed

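RNA of 3 IL-33 and 3 PBS libraries of mouse splenic CD11c+ cells was sequenced. The deposited values are FPKM per gene, 1 file per library, which the authors made with TopHat2 2.0.13, Bowtie2 2.2.3, SAMtools 0.1.19 and Cuffnorm 2.2.1 on mm10, per the submitters' processing notes; annotation, strand setting and library scaling: not given in the sources used here. Cuffnorm estimates do not keep read counts, so no count test was run and absolute depth is unknown.

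Genes of at least 1 FPKM in 3 of 6 libraries (11518 of 24346) were compared as log2(FPKM + 1) with limma 3.58.1 (R 4.3.3, variance trend with the mean, 2 groups of 3, no covariate) and Benjamini-Hochberg adjustment over all of them at 0.05. The pseudocount shrinks the changes of low genes. Tables and figures used Python 3.11.15, pandas 2.3.3, numpy 2.4.6, scipy 1.17.1 and matplotlib 3.10.9. Transcript lengths and exon overlaps came from GENCODE M21 (GRCm38, the mm10 assembly), which matched 23976 symbols and 99.4% of tested genes. For the length trend, a smooth curve of each library's deviation from the gene means against log2 length was subtracted. Promoters came from RefSeq GRCm38.p6. The main limma fit was tested on simulated data, which had no length trend and no difference in scale between groups.

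Values in each library are given for members past the threshold with separate groups, the 12 largest rises and falls among them first, and for both members of pairs whose ratios did not overlap, and of each partner list up to 3 genes in each direction by smallest adjusted p. Members beyond that rule and Suz12, Carm1, Uty, Whsc1 and Whsc1l1 were named after their values were seen. Related pairs were compared by an exact two-sided permutation test. The members, lists and pairs were chosen with earlier results of these data known. Alternatives were other pseudocounts, filters, scalings, removal of the length trend, a replicate block, library weights, no variance trend and leaving out each library.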

Additional observations from a re-analysis of the deposited data

How the results depend on the processing

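Both rises were lost only under the 3 rescalings, while some falls were lost under most settings. Against 31 lower and 2 higher members as deposited, equal totals gave 0 higher and a median of -0.62, quantile normalization 0 and -0.25, cyclic loess 0 and -0.21, and removal of the length trend 5 and -0.19. Among members called on either side, estimates changed sign for Kdm2b (-0.23) and Setd3 (-0.19), called lower with equal totals, and for Ehmt1 (0.019), Kdm5c (0.064) and Setdb1 (0.21) with the length trend removed, where of these 3 Setdb1 was called. Uncalled estimates of Ezh2, Kdm6b, Prmt2 and Suv420h2 also changed sign with equal totals. The lower count was 44, 29, 25 and 23 in these 4 settings. Leaving out each library in turn gave 26 to 30 lower and 2 higher members and medians of -0.38 to -0.30. Pseudocounts of 0.1 and 0.5 gave 32 and 31 lower, no filter 29, a filter of 5 FPKM 30 of 46 tested, library weights 31 and no variance trend 31. Across these and the replicate block, 18 members were called lower throughout. Deviations of same-numbered libraries correlated at 0.07, -0.05 and 0.09, and those of differently numbered libraries at -0.11 to 0.06. With 3 libraries per group these values cannot decide whether replicate numbers pair the libraries. With the replicate number as a block (replicate block) 25 members were lower and 2 higher, and the calls of Dot1l, Ehmt1, Kdm4b, Kdm5c, Prmt5 and Setd4 were not made. Of all calls, 52.4% were higher as deposited and 17.98% with equal totals. Depth in reads is unknown, so the counting error of low genes such as Setd4, Kdm8 and Suv39h2 could not be given.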
